A study of Mus musculus with 23 samples.

Results

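The comparison described here asks what the loss of the kinase MK3 adds in macrophages that already lack MK2. It sets bone marrow-derived macrophages (BMDM) of MK2/3-/- mice against BMDM of MK2-/- mice, both after 120 min with 100 ng/ml lipopolysaccharide (LPS), with 4 arrays per genotype, which are 8 of the 23 arrays of the experiment. All 26014 genes of the table were compared, without any selection on their values. Both genotypes lack MK2, in all cells and throughout life, and the MK2/3-/- mice lack MK3 (gene Mapkapk3) in addition, on a C57BL/6J background per the study's methods. The mice were 10 to 13 weeks (MK2-/-) and 11 to 14 weeks (MK2/3-/-) old, their marrow was differentiated for 9 days with 10 ng/ml M-CSF, M-CSF was withdrawn before LPS was added per the methods, and the 4 arrays of a group came from separate experiments. Arrays of MK2/3-/- BMDM (n = 4) and MK2-/- BMDM (n = 3) kept in medium, and of wt BMDM with LPS (n = 4) or medium (n = 4), serve as reference. BMDM lacking MK3 alone were not analysed here.

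LPS, the outer membrane component of Gram-negative bacteria, is sensed by TLR4 on macrophages and activates NF-kB, interferon regulatory factors and MAP kinases. The MAP kinase p38 phosphorylates MK2 and the closely related MK3, and the pair in turn phosphorylate tristetraprolin (Zfp36), a protein that binds AU-rich elements in short-lived transcripts such as those of Tnf, Il10 and Cxcl1 and directs them to decay. Phosphorylated tristetraprolin is less active, so that p38 and its kinases are known for prolonging the life of inflammatory transcripts. MK2 is the more abundant of these kinases in macrophages.

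Some arrays stood apart. The library labelled MK2-/- LPS replicate 3 went against its label, which names a male animal: the log2 signal of Xist, the transcript of the inactive X chromosome, was 8.34 there and 1.88 to 2.07 on the other arrays of the group. The Y-linked Eif2s3y lay at 1.76 in that library against 12.50 to 12.88 on the other arrays, and the Y-linked Ddx3y at 1.83 against 11.03 to 11.24. No array of MK2-/- BMDM in medium came from that culture, and results are therefore given with and without this library. On MK2-/- LPS replicate 1 the gradient correction of the scanner software held no fit. Collagen transcripts, a mark of stromal cells, were highest in replicates 3 and 4 of both genotypes, with Col1a2 at 11.00, 10.21, 12.42 and 14.54 in MK2-/- and at 9.42, 10.51, 13.10 and 15.13 in MK2/3-/- LPS BMDM. Each genotype was hybridized to a slide of its own, so that genotype and slide cannot be told apart. As these are whole cultures, fewer cells of a type and less RNA per cell cannot be told apart either.

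Mapkapk3 itself had the smallest p of all genes. Its log2 signal was 13.93, 13.80, 14.07 and 14.10 on the MK2-/- LPS arrays and 10.64, 10.36, 10.89 and 10.91 on the MK2/3-/- LPS arrays. Thus all arrays of the double knockout lay below all arrays of the single knockout, with a difference of -3.27 ± 0.17 (log2, SE), a 9.67-fold lower signal (adjusted p = 1.35e-09). The remaining signal was well above background on all 4 arrays, and was lower after LPS than in medium (10.70 ± 0.26 against 11.88 ± 0.22, SD). In wt BMDM with LPS Mapkapk3 lay at 14.01 ± 0.24, as in MK2-/- BMDM. Mapkapk2 lay below the wt level in both knockouts (11.96 ± 0.28 in MK2-/-, 11.76 ± 0.34 in MK2/3-/-, 14.77 ± 0.49 in wt BMDM), with a difference of -0.20 between the knockouts and a 95% interval from -0.72 to 0.33. The position of these probes relative to the disrupted exons was not determined, hence the residual signals say nothing on protein.

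Of the 26014 genes, 42 (0.161%) differed between LPS-treated MK2/3-/- and MK2-/- BMDM after Benjamini-Hochberg adjustment in limma, 15 of them higher (0.0577%) and 27 lower (0.104%) in the double knockout. With an unadjusted p under 0.05 there were 973 higher (3.74%) and 1086 lower genes (4.17%), a split that depended on the scaling: with each array scaled to its 75th percentile there were 1221 higher and 602 lower genes, and 13 higher and 11 lower past the adjustment. For comparison, 4460 genes (17.1%) responded to LPS in wt BMDM, 8.26% of all genes being higher and 8.89% lower. Against wt BMDM with LPS, whose arrays both comparisons share, 8 genes (0.0308%) passed for MK2-/- and 427 (1.64%) for MK2/3-/- BMDM. For the 13083 genes measured well above background throughout the 8 arrays the median SD was 0.293 in MK2-/- and 0.327 in MK2/3-/- BMDM. With the replicate number as a block 111 genes passed the adjustment, 51 higher and 60 lower, including all 42. This block takes same-numbered arrays as pairs, although the ages of the mice of both knockouts differed within each number. Without the library labelled MK2-/- LPS replicate 3, 19 genes passed, 17 of them among the 42. Arrays of the groups did not overlap for 41 of the 42 genes, the exception being Nod1. Over all genes 5.14% did not overlap, 2.06% with the double knockout higher and 3.08% with it lower. Of the 42, 35 were well above background on all arrays of at least 1 of the compared groups, and 12 were not named through the reference table. On none of the 8 arrays compared were 5 of them (Sbk3, Olfr800, Olfr1020, Il1rl2 and BC096660) well above background.

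**Figure D1:**
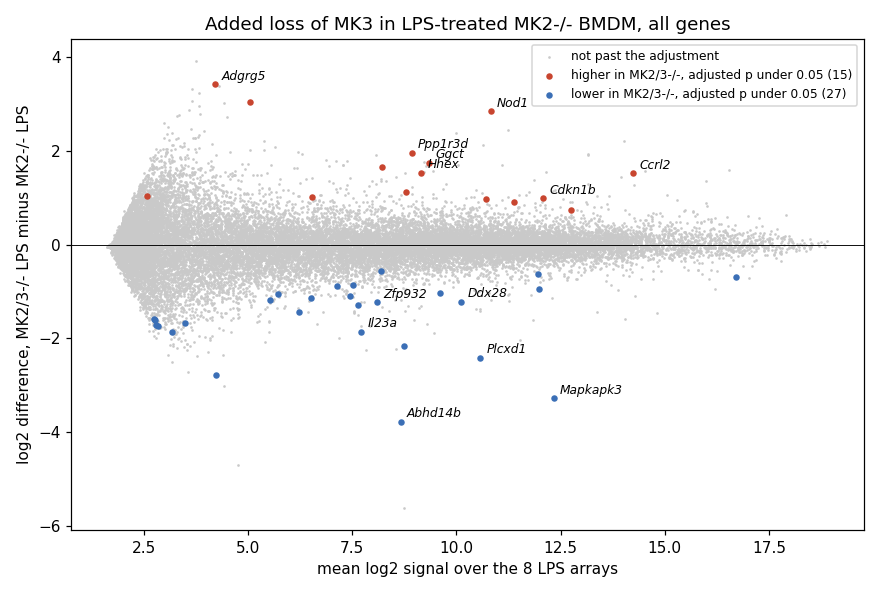
Log2 difference between MK2/3-/- LPS and MK2-/- LPS BMDM (y axis) against the mean log2 signal over the 8 arrays (x axis), with 1 point per gene. Coloured points are the 15 genes higher and the 27 genes lower in the double knockout after adjustment, and Mapkapk3 and Abhd14b lie lowest among the coloured points.

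A first set of genes differed in medium as well. In medium 12 genes (0.0461%) passed the adjustment between the same genotypes, 3.57% of all genes having an unadjusted p under 0.05, and 10 of the 42 genes were among them, all in the same direction. Besides Mapkapk3 these included Abhd14b, Plcxd1, Zfp932, Serpinb6d and 4 entries or clones without a described function (AK007220, 9030025P20Rik, XM_003945321 and XM_001476155). Abhd14b, which encodes a hydrolase of the alpha/beta fold, gave 10.70, 10.17, 10.67 and 10.67 in MK2-/- LPS and 7.93, 6.40, 6.18 and 6.58 in MK2/3-/- LPS BMDM. This 13.7-fold difference (-3.78 ± 0.31, adjusted p = 1.5e-06) was larger than that of Mapkapk3 and was -3.85 in medium. Plcxd1, a gene of the phospholipase C X domain family, was 11.70 to 11.90 on the MK2-/- and 8.90 to 9.77 on the MK2/3-/- arrays (-2.41 ± 0.15, adjusted p = 4.31e-08). Its neighbour Zfp932, a zinc finger gene, fell by 1.23 ± 0.19 (adjusted p = 0.00793). Serpinb6d, a serine protease inhibitor, fell by 1.02 ± 0.12 (adjusted p = 0.000437). For Abhd14b and Plcxd1 the wt LPS arrays lay near the MK2-/- arrays (10.25 ± 0.30 and 11.83 ± 0.11). For 9030025P20Rik they lay between the knockouts, at 8.19 to 8.98 against 8.03 to 8.34 in MK2-/- and 9.04 to 9.68 in MK2/3-/- LPS BMDM. Upward, the adhesion receptor gene Adgrg5 was well above background on all 4 MK2/3-/- and on no MK2-/- array, at least 3.21-fold higher (adjusted p = 0.00932), and differed by 3.11 in medium with an adjusted p of 0.0906. Without MK2-/- LPS replicate 3, Mapkapk3, Abhd14b, Plcxd1, Zfp932, Serpinb6d and Adgrg5 remained past the adjustment, as they did without any other of the 8 arrays.

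Some of the 42 genes lie near Mapkapk3. Within 10 Mb of its start on chromosome 9 (gene order of the assembly GRCm38.p6) 250 other genes were measured, of which 3 passed the adjustment, among them Abhd14b and Ccrl2, and 13.6% had an unadjusted p under 0.05, as did 7.78% of all other genes named through the reference table. Abhd14b starts 0.807 Mb before Mapkapk3, and Ccrl2 3.80 Mb behind it. The genes next to Abhd14b, chosen after their values were seen, had differences of -2.24 (Abhd14a, adjusted p = 0.0869), -1.74 (Pcbp4, adjusted p = 0.31) and -0.74 (Parp3, adjusted p = 0.398) after LPS, and of -2.11, -2.26 and -0.86 in medium. With the replicate block Abhd14a (adjusted p = 0.00994) and Parp3 (0.0372) passed and Pcbp4 did not, and 8 of the 250 genes passed in place of 3. Around Mapkapk2 on chromosome 1, which both genotypes lack alike, 0 of 144 genes passed the adjustment in limma (1, Il10, with the replicate block), and 6.94% had an unadjusted p under 0.05. The difference of these shares was not tested. Other neighbours among the 42 genes were Nod1 and Ggct on chromosome 6, 0.0612 Mb apart, and Plcxd1 and Zfp932 on chromosome 5, 0.103 Mb apart.

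**Figure D2:**
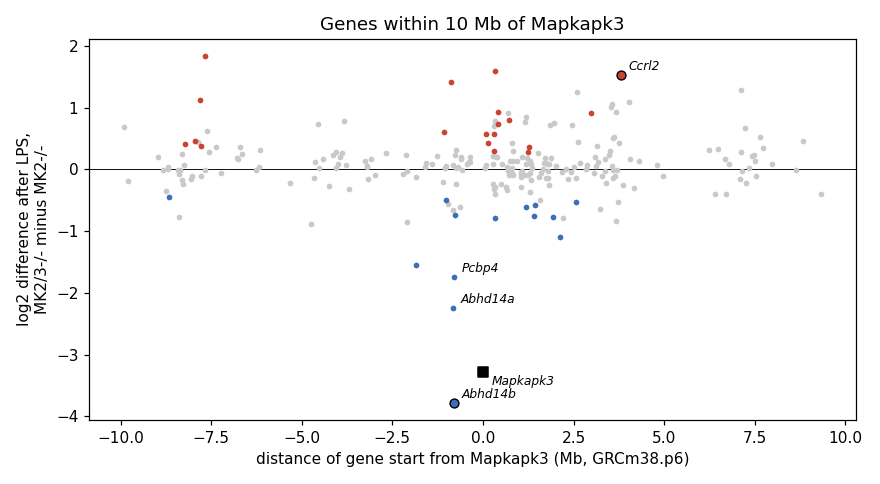
Log2 difference after LPS (y axis, MK2/3-/- minus MK2-/-) against the distance of each gene's start from that of Mapkapk3 in Mb (x axis). Grey points have an unadjusted p of 0.05 or more, red and blue points are higher or lower below that p, outlined points passed the adjustment, and the square is Mapkapk3. Of the 3 genes that passed, Abhd14b and Ccrl2 are drawn. Abhd14b, Abhd14a and Pcbp4 lie side by side below 0.

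A second set differed after LPS with little or no difference in medium. Of the 42 genes, 19 had an unadjusted p under 0.05 in medium in the same direction. For the interaction of MK3 loss and LPS 24 of them had an unadjusted p under 0.05. The difference after LPS, by which the 42 genes were selected, is itself a term of this interaction. The count of 24 is thus raised by the selection and cannot show that these genes depend on LPS as a set. Across all genes, however, the interaction gave no gene past the adjustment in limma and 748 (2.88%) with an unadjusted p under 0.05, so that no single gene is shown to depend on LPS by this test.

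The higher genes included Nod1, the intracellular receptor for a fragment of bacterial peptidoglycan. The signal of Nod1 was 8.78, 11.06, 9.29 and 8.47 in MK2-/- LPS and 12.66, 13.45, 12.26 and 10.62 in MK2/3-/- LPS BMDM, with an overlap of the highest array of the former and the lowest of the latter. Nod1 was higher by 2.85 ± 0.55, or 7.22-fold (adjusted p = 0.0416, and 0.00877 with the replicate block), against 0.65 in medium. In wt BMDM with LPS it lay at 11.89 ± 0.91. Its neighbour Ggct, which encodes an enzyme of glutathione breakdown, followed the same order: 8.59, 8.67, 8.59 and 8.0 in MK2-/- LPS and 10.54, 11.07, 9.94 and 9.30 in MK2/3-/- LPS BMDM, with 10.52 ± 0.52 in wt BMDM. This was a 3.36-fold higher level (1.75 ± 0.31, adjusted p = 0.0235) with a difference of 0.05 in medium. LPS moved Ggct by -0.14 in MK2-/- and by 1.56 in MK2/3-/- BMDM. Without MK2-/- LPS replicate 3 both kept their size (2.81 for Nod1, 1.79 for Ggct), with adjusted p of 0.135 and 0.0583. With 1 array left out at a time each of them kept its adjusted p under 0.05 in 2 of 8 cases, with adjusted p of up to 0.152 for Nod1 and 0.0787 for Ggct.

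Hhex, Ppp1r3d and Slc66a2, which were lower after LPS in wt BMDM, were also among the higher genes. Hhex, a homeobox transcription factor of blood and liver cells, lay at 12.21 ± 0.13 and 12.08 ± 0.13 in MK2-/- and MK2/3-/- BMDM in medium. After LPS it reached 8.54, 8.71, 8.25 and 8.05 in MK2-/- but 10.09, 10.81, 9.59 and 9.19 in MK2/3-/- BMDM, 2.89-fold higher (1.53 ± 0.29, adjusted p = 0.0381). The LPS effect on Hhex was thus -3.82 in MK2-/- and -2.16 in MK2/3-/- BMDM. Ppp1r3d, a subunit that targets protein phosphatase 1 to glycogen, changed by -1.78 upon LPS in MK2-/- and by 0.36 in MK2/3-/- BMDM. Its levels after LPS were 7.29 to 8.69 and 9.06 to 10.38, respectively (1.96 ± 0.31, adjusted p = 0.00932). Slc66a2, a transporter family gene, was higher by 0.90 ± 0.14 (adjusted p = 0.00802), at 10.92 ± 0.20 against 11.82 ± 0.11. In medium it was also higher in the double knockout, at 12.67 to 12.75 against 12.36 to 12.43 in MK2-/- BMDM. The LPS values of Hhex, Ppp1r3d and Slc66a2 lie closer to those of the same genotype in medium in the double knockout than in MK2-/- BMDM.

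Further higher genes were Cdkn1b, Gcc1 and Ccrl2. Cdkn1b, the cyclin-dependent kinase inhibitor p27, was 11.77, 11.57, 11.55 and 11.45 in MK2-/- LPS and 12.98, 12.54, 12.52 and 12.27 in MK2/3-/- LPS BMDM (1.99-fold, 0.99 ± 0.17, adjusted p = 0.0187). Of 24 other genes of the cell cycle and DNA replication, 0 passed the adjustment in limma and 1 had an unadjusted p under 0.05 (7.91% of all genes did). Gcc1, a Golgi protein, was 10.16 to 10.27 and 10.70 to 11.58 (0.99 ± 0.19, adjusted p = 0.0367), and 9.33 ± 0.13 and 9.35 ± 0.05 in medium. For Ccrl2, a receptor that binds the chemoattractant chemerin without signalling, the LPS effect was 5.92 in MK2-/- and 6.34 in MK2/3-/- BMDM. After LPS it was 13.29, 13.22, 13.41 and 13.95 in MK2-/- and 14.76, 14.53, 15.42 and 15.27 in MK2/3-/- BMDM, a 2.89-fold higher level (1.53 ± 0.27, adjusted p = 0.0242). In medium Ccrl2 differed by 1.11 (unadjusted p = 0.00132), and it is also a gene from the region of Mapkapk3. Ppp1r3d and Slc66a2 kept their adjusted p under 0.05 without MK2-/- LPS replicate 3, whereas Hhex (0.134), Cdkn1b (0.0583), Gcc1 (0.0988) and Ccrl2 (0.079) did not, at nearly unchanged differences. Over all arrays left out in turn Ccrl2 remained under 0.05 in 4 of 8 cases and Hhex in 1 of 8.

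**Figure D3:**
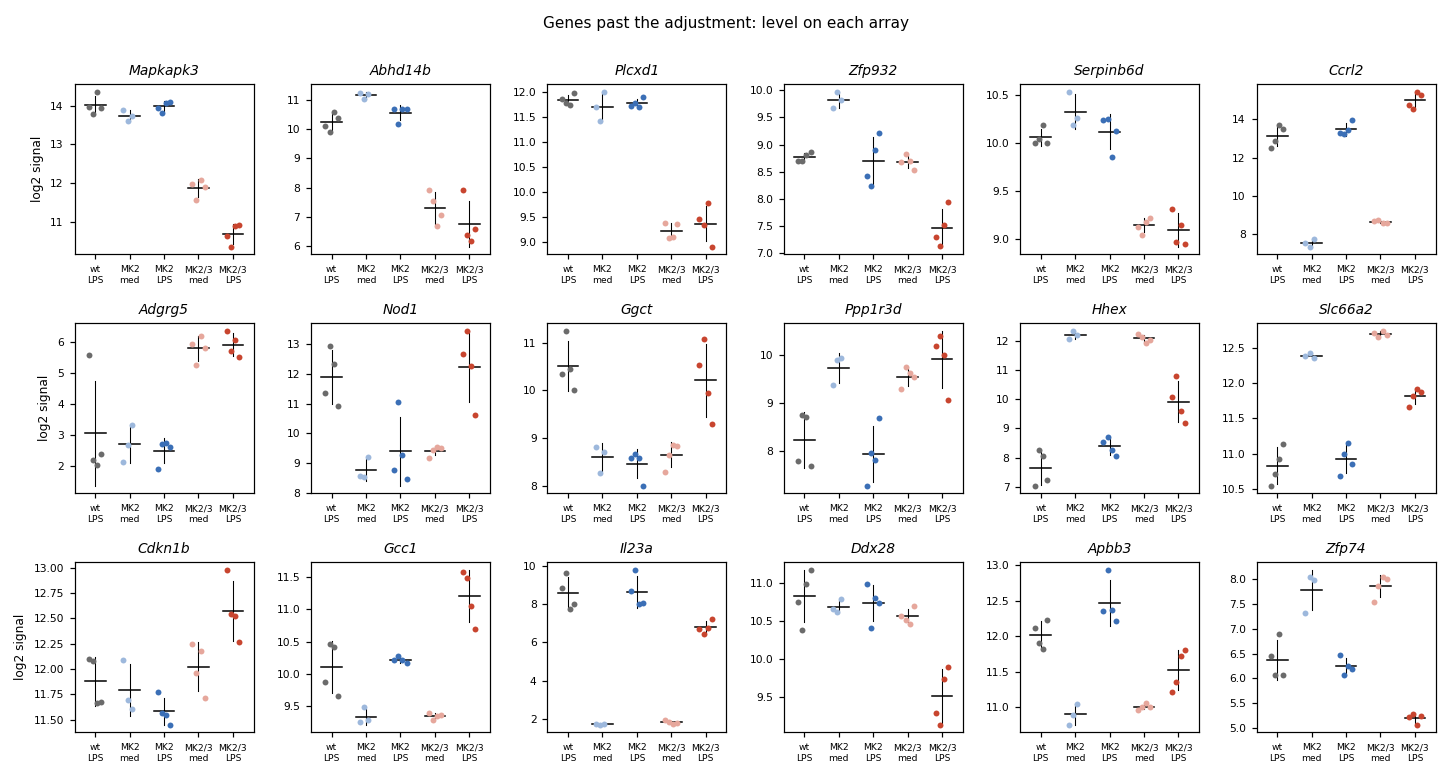
Log2 signal (y axis of each panel) of 18 genes that passed the adjustment, by group: wt with LPS (grey), MK2-/- in medium (light blue) and with LPS (blue), MK2/3-/- in medium (light red) and with LPS (red). Points are arrays, horizontal bars the mean and vertical bars 1 SD. From Mapkapk3 to Serpinb6d the double knockout is lower both in medium and with LPS, whereas Nod1, Ggct, Hhex, Il23a, Ddx28 and Zfp74 differ with LPS.

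Among the remaining named lower genes, Il23a was the only cytokine. It encodes the p19 subunit of interleukin-23, a cytokine that sustains Th17 cells. The signal of Il23a was 1.72 ± 0.02 and 1.83 ± 0.08 in medium, near the lowest signals of the arrays, so that a difference there could not be seen. After LPS it was 8.69, 9.79, 8.01 and 8.08 in MK2-/- and 6.70, 6.46, 6.73 and 7.25 in MK2/3-/- BMDM. The groups with LPS did not overlap, and the double knockout was 3.63-fold lower (-1.86 ± 0.36, adjusted p = 0.0408, and 0.043 without MK2-/- LPS replicate 3). With 1 array left out at a time Il23a kept its adjusted p under 0.05 in 3 of 8 cases (without MK2-/- LPS replicates 3 or 4, or MK2/3-/- LPS replicate 4), with differences from -2.07 to -1.47 and adjusted p of up to 0.128, and it did not pass with scaling to the 75th percentile. In wt BMDM with LPS Il23a was at 8.57 ± 0.86, as in MK2-/- BMDM. Ddx28, an RNA helicase of mitochondria, was 10.41 to 10.98 in MK2-/- LPS and 9.13 to 9.89 in MK2/3-/- LPS BMDM (-1.22 ± 0.18, adjusted p = 0.00393), with a difference of -0.13 in medium. Apbb3, an adaptor that binds the amyloid precursor protein, had an LPS effect of 1.56 in MK2-/- and of 0.51 in MK2/3-/- BMDM and differed by -0.94 ± 0.16 after LPS (adjusted p = 0.02). The LPS effect on the zinc finger gene Zfp74 was -1.55 in MK2-/- and -2.67 in MK2/3-/- BMDM, with 6.06 to 6.48 and 5.06 to 5.28 on the LPS arrays (adjusted p = 0.0235). Grpel2, a co-chaperone of mitochondrial import, fell by 0.55 ± 0.11 (adjusted p = 0.0475), and Trp53rka, a p53-related kinase gene, by 0.88 ± 0.16 (adjusted p = 0.0242). The nutrient-sensing gene Mios, a component of the GATOR2 complex, differed by -1.28 ± 0.23 (adjusted p = 0.0242), although it also differed by -1.01 in medium. Of these, Il23a and Ddx28 remained past the adjustment without MK2-/- LPS replicate 3. Il1rl2, the IL-36 receptor, is listed among the 27 lower genes, but none of the 8 arrays measured it well above background.

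The remaining entries had no gene name here or a low signal. AK154954 was 3.14-fold higher (1.65 ± 0.29, adjusted p = 0.02) at 6.47 to 8.01 in MK2-/- LPS and 8.67 to 9.42 in MK2/3-/- LPS BMDM, and -0.37 apart in medium. AK019943 was well above background on all 4 MK2-/- and on none of the MK2/3-/- arrays, at least 2.61-fold lower (adjusted p = 0.00243). AK133004 lay at 7.07 ± 0.36 and 5.93 ± 0.27 (adjusted p = 0.0416) against 8.02 ± 0.35 in wt BMDM, and AK007220 was at least 5.01-fold higher (adjusted p = 0.00221). Ccdc190 and Gm4303 were above background on at most 2 of the 8 arrays.

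Transcripts known as targets of tristetraprolin had mostly negative differences in the double knockout. Of 20 such genes 6 had a positive difference (12774 of all 26014 genes did), and Il23a passed the adjustment. With an unadjusted p under 0.05, 6 were lower and 2 higher (7.91% of all genes had such a p in either direction). The median difference was -0.30 against -0.0058 over all genes. Such counts are a description, as genes of a response are not independent. Csf2, the granulocyte-macrophage colony-stimulating factor, was 10.36, 11.66, 11.04 and 8.58 in MK2-/- LPS and 7.64, 8.27, 8.99 and 9.18 in MK2/3-/- LPS BMDM. Replicate 4 of MK2-/- thus lay among the double knockouts, and the difference of -1.89 ± 0.48 had an adjusted p of 0.156. Il10, the main anti-inflammatory cytokine of macrophages, gave 8.52, 10.86, 10.07 and 11.10 in MK2-/- LPS and 7.35, 9.22, 8.16 and 9.07 in MK2/3-/- LPS BMDM. Within each replicate number Il10 had the lower value in MK2/3-/- BMDM, and its difference of -1.69 ± 0.47 passed with the replicate block (adjusted p = 0.0438) and not without (0.228). In wt BMDM Il10 was at 11.67 ± 0.33, and against it MK2/3-/- BMDM differed by -3.22 (adjusted p = 0.00158) and MK2-/- BMDM by -1.53 (adjusted p = 0.452). Il2, a T cell growth factor, differed by -2.22 ± 0.63 (adjusted p = 0.254), with arrays at 8.35 to 10.57 and 6.07 to 8.74. Higher in the double knockout, though with adjusted p of 0.493 and 0.509, were Ier3 (1.06), an early response gene, and Dusp1 (0.75), a phosphatase that inactivates p38. Tnf itself lay at 17.34 ± 0.16 in MK2-/- and 17.02 ± 0.37 in MK2/3-/- LPS BMDM, a difference of -0.32 with a 95% interval from -1.10 to 0.45, Il6 differed by -0.39 (adjusted p = 0.988) and Il1b by -0.28 (adjusted p = 0.948).

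The neutrophil-attracting chemokines Cxcl1 and Cxcl2, neighbours on chromosome 5, were both among these targets. Cxcl2 was 15.03, 14.83, 14.68 and 14.78 in MK2-/- LPS and 12.66, 13.07, 13.26 and 14.02 in MK2/3-/- LPS BMDM. Cxcl1 was 15.86, 15.98, 15.42 and 14.91 in the former and 13.82, 14.01, 13.75 and 14.75 in the latter. In neither gene did the groups overlap, yet the differences (-1.58 ± 0.45 for Cxcl2 and -1.46 ± 0.49 for Cxcl1) had adjusted p of 0.254 and 0.377. Cxcl3 likewise lay lower on every MK2/3-/- array (12.07 to 12.97 against 12.99 to 14.76, adjusted p = 0.775). In medium Cxcl2 differed by 0.01 and Cxcl1 by -0.46. Of the other CXC and CC chemokines none passed the adjustment in limma, 2 of all 26 having an unadjusted p under 0.05 in the upward direction (Cxcl9, 2.21, and Ccl12, 1.12) and 2 in the downward direction. Over all genes the shares with such a p were 3.74% upward and 4.17% downward.

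To set these genes beside genes of the opposite direction, the promoters of Cxcl1 and Cxcl2 are shown with those of Ccrl2 and of Socs1 (a brake of cytokine signalling, described below). Each sequence runs from 250 bases before to 50 bases after the gene start in the RefSeq promoter table of GRCm38.p6, 5′ to 3′ on the strand of the gene. Capitals mark matches on either strand to the NF-kB consensus, the interferon-stimulated response element (a pair of GAAA blocks separated by any 2 bases), an AP-1 site (TGANTCA), a cAMP response element (TGACGTCA) and an E-box (CACGTG), where overlapping matches run together.
Cxcl1 (chr5:90890995-90891294, plus strand): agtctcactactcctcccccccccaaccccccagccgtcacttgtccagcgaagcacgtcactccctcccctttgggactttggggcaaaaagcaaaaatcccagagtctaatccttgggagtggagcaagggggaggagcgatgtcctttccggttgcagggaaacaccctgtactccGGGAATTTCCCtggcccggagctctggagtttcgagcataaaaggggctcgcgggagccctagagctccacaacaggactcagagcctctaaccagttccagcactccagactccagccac
Cxcl2 (chr5:90903649-90903948, plus strand): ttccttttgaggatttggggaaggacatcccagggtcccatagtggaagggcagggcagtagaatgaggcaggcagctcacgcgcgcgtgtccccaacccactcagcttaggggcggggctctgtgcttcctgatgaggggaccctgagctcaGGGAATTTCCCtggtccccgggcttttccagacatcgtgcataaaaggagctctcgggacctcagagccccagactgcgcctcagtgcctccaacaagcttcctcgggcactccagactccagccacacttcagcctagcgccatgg
Ccrl2 (chr9:111057469-111057768, minus strand): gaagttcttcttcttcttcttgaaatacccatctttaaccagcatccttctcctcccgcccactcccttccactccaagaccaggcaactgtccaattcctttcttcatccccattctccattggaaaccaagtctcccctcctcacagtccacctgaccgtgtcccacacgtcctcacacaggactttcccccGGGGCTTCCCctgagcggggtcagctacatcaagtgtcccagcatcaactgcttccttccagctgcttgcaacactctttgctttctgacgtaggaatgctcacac
Socs1 (chr16:10785487-10785786, minus strand): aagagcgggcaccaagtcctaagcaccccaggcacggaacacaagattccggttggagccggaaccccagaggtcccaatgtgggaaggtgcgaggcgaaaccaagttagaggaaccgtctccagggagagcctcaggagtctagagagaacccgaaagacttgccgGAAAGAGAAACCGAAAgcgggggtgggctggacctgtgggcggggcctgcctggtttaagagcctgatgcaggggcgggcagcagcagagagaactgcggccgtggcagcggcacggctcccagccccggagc
Cxcl1 and Cxcl2 shared the letters GGGAATTTCC, a match to the NF-kB consensus, at position -71 and -97 from the start. Ccrl2, which was higher in the double knockout, held a match to the same consensus (GGGGCTTCCC) at position -56, in the most upstream of the 3 promoters listed for it. Socs1 held a pair of overlapping response elements, GAAAGAGAAA and GAAACCGAAA, at positions -83 and -77. Of all 32851 promoters in the table, 8.46% held a match to the NF-kB consensus and 3.44% to the response element. Promoters were listed for 23 of the 42 genes. Of the 13 promoters of higher genes 2 held the NF-kB consensus and 0 the response element, and of the 18 of lower genes 0 and 1, respectively.

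Regulators within the MAP kinase pathway had differences in both directions. Of 12 MAP kinase phosphatases none passed the adjustment in limma, 3 were higher and 2 lower with an unadjusted p under 0.05. Over all genes 3.74% were higher and 4.17% lower with such a p. Dusp7, which acts on ERK and lies 0.886 Mb from Mapkapk3, was 6.89 to 7.89 in MK2-/- LPS and 8.06 to 9.51 in MK2/3-/- LPS BMDM, without overlap (1.41, adjusted p = 0.239), and -0.61 apart in medium. Dusp16, which acts on JNK and p38, was also higher on every MK2/3-/- array (8.63 to 9.91 against 7.94 to 8.47, adjusted p = 0.324). Negative differences were found for Dusp4 (-1.30, adjusted p = 0.629) and Dusp5 (-1.18, adjusted p = 0.507), phosphatases of the nucleus. Jun, the transcription factor of AP-1, was 12.29, 12.11, 11.77 and 12.63 in MK2-/- LPS and 14.73, 14.55, 13.65 and 13.51 in MK2/3-/- LPS BMDM. This 3.75-fold difference (1.91 ± 0.43) had an adjusted p of 0.0959, and 0.0188 with the replicate block. Jun stood at 13.90 ± 0.36 and 13.83 ± 0.95 in medium, so that LPS moved it by -1.70 in MK2-/- and by 0.28 in MK2/3-/- BMDM. Of the 24 immediate-early transcription factors 2 had an unadjusted p under 0.05, Jun and Atf3 (0.70, adjusted p = 0.432), both higher. That is close to the share of such genes over all genes (7.91%). Of the p38 cascade, Mapkapk3 aside, only Mapk14, which encodes p38 alpha, had such a p (-0.63, adjusted p = 0.297). The levels of Zfp36, tristetraprolin itself, ranged from 10.60 to 11.03 in MK2-/- and from 10.42 to 11.53 in MK2/3-/- LPS BMDM (0.40, adjusted p = 0.859).

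Interferon-responsive genes had mostly positive differences without any of them passing the adjustment in limma. Of 31 interferon-stimulated genes 29 had a positive difference and 1 an unadjusted p under 0.05, with a median of 0.34. Of 14 interferon-inducible GTPases 13 had a positive difference and 0 such a p, with a median of 0.59. Over all 26014 genes 12774 had a positive difference and 7.91% such a p, with a median of -0.0058. With the replicate block 3 of the GTPases had an unadjusted p under 0.05, as did 2795 of all genes. These counts are a description, as genes of a response are not independent. Herc6, an interferon-induced ubiquitin ligase, was 10.45, 11.02, 10.03 and 9.49 in MK2-/- LPS and 12.39, 12.81, 11.90 and 10.67 in MK2/3-/- LPS BMDM (1.69 ± 0.45), with an adjusted p of 0.188, and 0.0247 with the block. In both genotypes replicate 4 was the lowest and replicate 2 the highest array of Herc6. The same order was seen for Iigp1 (9.17, 10.11, 7.80 and 7.47 against 11.25, 12.43, 9.90 and 7.30) and for Irf8, a transcription factor of macrophage differentiation (15.14, 16.16, 15.26 and 14.71 against 17.18, 17.64, 16.80 and 15.08). Replicate 4 was also the one with the highest collagen signals in both genotypes, and the part of other cells in this result was not tested. Irf8 differed by 1.36 ± 0.47 (adjusted p = 0.4). With Irf2 (0.58) and Irf3 (0.40), 3 of 9 interferon regulatory factors had an unadjusted p under 0.05, all higher, as did 3.74% of all genes in that direction.

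Socs1, which is induced by interferons and curbs JAK kinases, was 13.32, 13.52, 13.17 and 12.87 in MK2-/- LPS and 15.00, 15.36, 14.96 and 13.31 in MK2/3-/- LPS BMDM. Here too replicate 4 of the double knockout lay within the range of MK2-/- BMDM. The difference of 1.44 ± 0.50 had an adjusted p of 0.395, and 0.0454 with the replicate block. The interferon gene Ifnb1 was 12.22, 13.08, 12.56 and 14.75 in MK2-/- LPS and 13.46, 13.44, 13.13 and 14.76 in MK2/3-/- LPS BMDM, against 14.87 ± 0.65 in wt BMDM. It was higher in MK2/3-/- BMDM in each replicate number, by 0.54 on average with a 95% interval from -0.41 to 1.49 (adjusted p = 0.838, and 0.653 with the block). Replicate 4 of Ifnb1 was equally high in both knockouts. Cxcl9, an interferon-induced chemokine, was 11.95 to 14.14 in MK2-/- LPS and 12.62 to 16.75 in MK2/3-/- LPS BMDM, with an adjusted p of 0.629, whereas Cxcl10 was at 18.32 to 18.60 and 18.24 to 18.45.

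**Figure D4:**
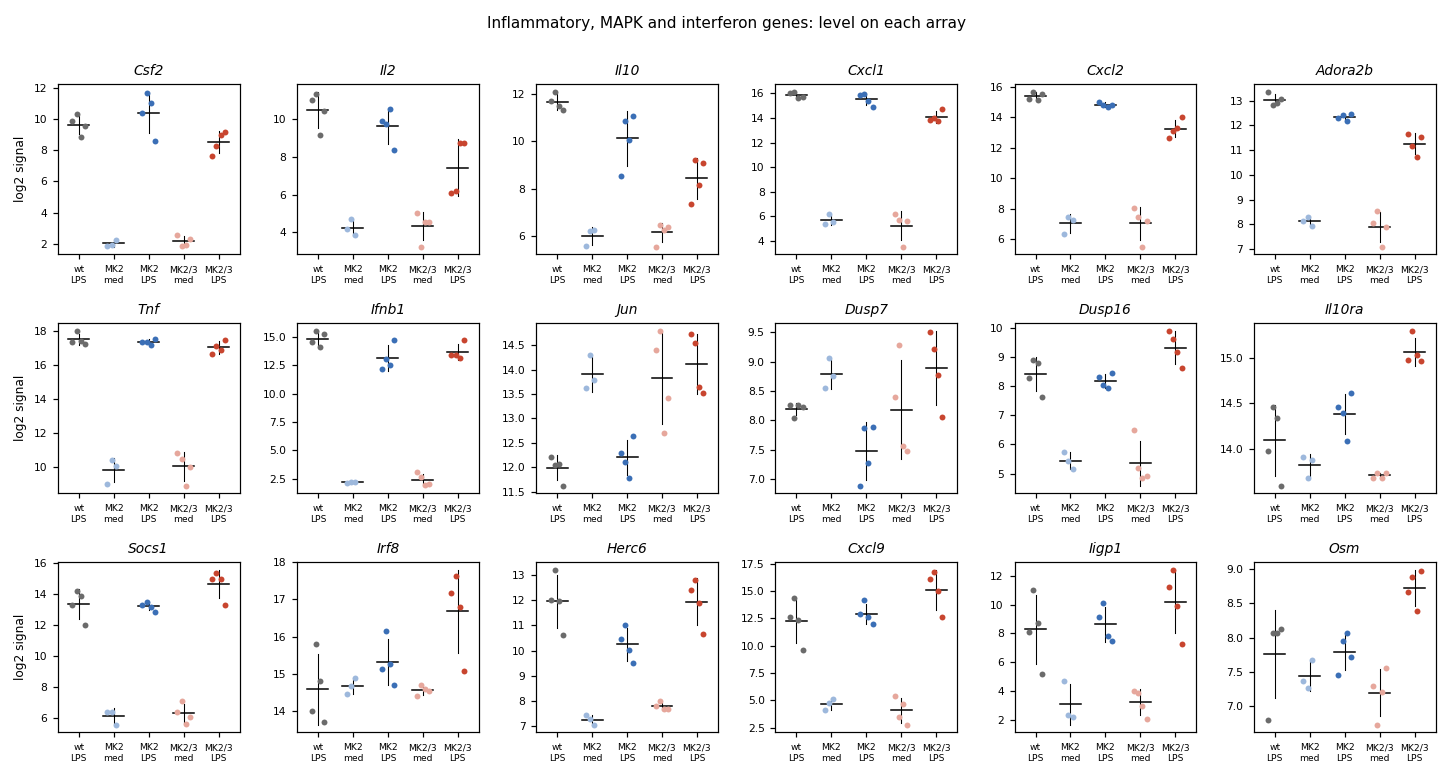
Log2 signal (y axis of each panel) of 18 cytokine, MAP kinase and interferon genes, which did not pass the adjustment, in the groups and with the marks of the plot of genes that passed it. Csf2, Il2, Il10, Cxcl1, Cxcl2 and Adora2b are lower and Jun, Dusp7, Il10ra and Socs1 higher in MK2/3-/- LPS than in MK2-/- LPS BMDM on average. Of these, Csf2, Il2, Il10 and Socs1 overlap between the groups, as do Tnf and Ifnb1.

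Receptors and mediators of feedback gave further differences that did not pass the adjustment. Il10ra, the receptor of IL-10, was higher on every MK2/3-/- array (14.97 to 15.30 against 14.08 to 14.61, adjusted p = 0.168), with -0.11 in medium. Osm, the IL-6 family cytokine oncostatin M, was 7.45 to 8.06 and 8.38 to 8.97, also without overlap (0.93, adjusted p = 0.269). The adenosine receptors went apart: Adora2b, a Gs-coupled receptor, was 12.18 to 12.45 in MK2-/- LPS and 10.72 to 11.63 in MK2/3-/- LPS BMDM (-1.07, adjusted p = 0.26), and Adora3 differed by 1.70 (adjusted p = 0.315). Bbc3, the pro-apoptotic BCL2 family member PUMA, was 11.81 to 12.98 and 12.79 to 13.84. Its difference of 0.91 passed with the replicate block (adjusted p = 0.0247) but not without (0.387). Bbc3 did not pass with the block by culture letter described with the processing. Of the receptors and adaptors of TLR4 signalling (23 genes), the TNF superfamily (14), the IL-1 family (13), the heat shock proteins (12) and the lysosomal genes (24) none had an unadjusted p under 0.05. Of all genes 7.91% had such a p. Of the 22 genes of glycolysis 2 did, Pfkp (0.85) and Pfkl (0.50), both higher. Of the 14 genes of prostaglandin and histamine synthesis 3 did, with Ptges lower (-1.36) and Ptger4 (0.70) and Ptges3 (0.50) higher. Of 14 NOD receptors and inflammasome genes, Nod1 passed the adjustment, and Nlrp1a (0.86), Aim2 (0.68) and Nlrc4 (-1.32) had an unadjusted p under 0.05. The value of Nlrc4 rested on MK2/3-/- LPS replicate 1, without which the difference was -0.48.

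**Figure D5:**
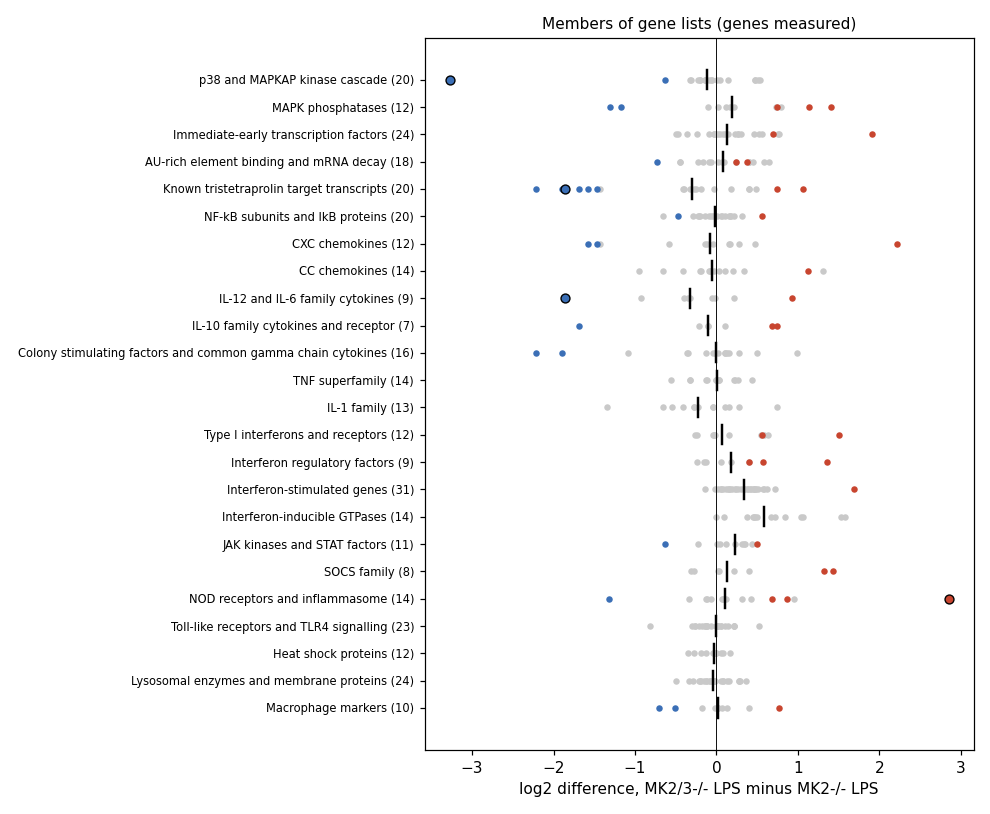
Log2 difference after LPS (x axis, MK2/3-/- minus MK2-/-) for the members of 24 gene lists (y axis, number of genes measured in parentheses). Each point is a gene, red or blue with an unadjusted p under 0.05 and outlined where it passed the adjustment, and black bars are list medians. The medians of the interferon-inducible GTPases (0.59) and the tristetraprolin targets (-0.30) lie farthest from 0 in opposite directions, apart from the IL-12 and IL-6 family (-0.33).

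How the loss of MK3 relates to the LPS response at large was read from the response of wt BMDM. Of the 681 genes at least 4-fold higher after LPS in wt BMDM, 2 rose and 2 fell in the double knockout (Ccrl2 and Nod1, Il23a and AK133004), and 9.54% had an unadjusted p under 0.05. Such a p was found for 12.8% of genes induced and 13.0% of genes lowered less than 4-fold. Among genes that did not pass the adjustment for LPS in wt BMDM the share was 7.02%. The p for LPS and for MK3 loss came from the same fit, where a gene's error enters both. Genes with a small error pass both more readily, so these shares cannot show a link with the LPS response. The median absolute difference was 0.191 and 0.19 in the sets under 4-fold, against 0.212 in genes that did not pass. It was 0.302 and 0.308 in genes at least 4-fold higher and lower. Among moderately lowered genes the lower ones prevailed (168 against 88 higher), and among moderately induced genes the higher ones (118 against 70 lower). The median differences were -0.061 in the former and 0.063 in the latter set. Scaling each array to its 75th percentile gave a median of 0.127 over all genes, and these splits were not counted with it. The shares and splits above are a description, as genes of a response are not independent.

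The labelled cell type was checked against its markers, and all 10 macrophage markers measured were well above background on all 8 arrays. Their summed signals were 866800 to 1161000 in MK2-/- and 824000 to 1060000 in MK2/3-/- LPS BMDM. Of the other lists, T and NK cell markers summed to 944 to 1673 and 1196 to 2294, B cell markers to 355 to 976.7 and 527.5 to 931.7, and mast cell markers, of which 4 of 7 were above background nowhere, to 48.4 to 94.6 and 35.5 to 70.1. Neutrophil markers ranged from 3889 to 13590 and from 3704 to 17680, dendritic cell markers from 6358 to 11250 and from 7090 to 15730, erythroid and megakaryocyte markers from 16100 to 26730 and from 18800 to 28550, and stromal markers from 2544 to 32610 and from 1647 to 49480. Their ranges overlapped between the genotypes, and none of these genes passed the adjustment in limma, whereas 3 mast cell, 1 B cell and 1 dendritic cell marker were lower and 1 dendritic cell, 1 T and NK cell and 1 stromal marker higher with an unadjusted p under 0.05. Of the 10 macrophage markers 1 was higher and 2 were lower with such a p, the shares over all genes being 3.74% and 4.17%. The part of such cells in the results above was not tested.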

How the data were processed

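RNA of 23 BMDM cultures was hybridized to 1-colour Agilent mouse arrays, 1 array per sample. The authors deposited the scanner output, made with Agilent Feature Extraction 11.0.1.1, as intensity values, background-subtracted and detrended within the array, together with a table of log2 values after quantile normalization, each probe being expressed relative to its own median. Here, the log2 of the processed intensity was quantile normalized over all 23 arrays. Of 55681 probes without controls, 32885 carried an accession of RefSeq or GenBank and represented 26014 genes, of which 20886 were named through the reference table of GRCm38.p6, whereas the array design is built on mm9. A linear model of 6 groups was fitted with limma 3.58.1 (lmFit and eBayes, R 4.3.3), with Benjamini-Hochberg adjustment over all genes at 0.05. Errors are SD over arrays or SE of the fit. The number of arrays limits the precision, and an exact permutation test of 4 against 4 arrays cannot give a p below 0.0286. Fold limits ("at least") set a group not well above background to the higher of its own signal and the lowest signal well above background, per array. The script was tested on simulated data, and figures were drawn with matplotlib 3.10.9.

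The genes, gene lists and tests were chosen with earlier results of these data known. Named were the targeted genes, the 20 genes with the largest increase and the 20 with the largest decrease past the adjustment, up to 4 genes per list with an unadjusted p under 0.05, genes that the study names for its arrays and sex-linked genes. Beyond that rule, Serpinb6d, Apbb3, Trp53rka, Grpel2, XM_001476155, Ier3, Abhd14a, Pcbp4 and Parp3 were named after their values were seen. The replicate number was taken to pair arrays, as the study's methods describe independent experiments. Deviations from the group means correlated between same-numbered arrays at 0.231, 0.754, 0.408 and 0.576. Between differently numbered arrays they correlated at -0.727 to 0.413 (the highest for MK2-/- replicate 2 with MK2/3-/- replicate 1). MK2/3-/- replicate 1 thus correlated more with MK2-/- replicate 2 than with MK2-/- replicate 1. In MK2-/- medium the number 3 is the culture of number 4 in the other groups, and the block by culture letter takes this into account. Alternatives covered scaling, background, filters, tests, blocks and each array left out. Some names of the gene lists had no match in the table and were not analysed here, and some genes past the adjustment are not reported here.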

Additional observations from a re-analysis of the deposited data

Results flagged for a closer look

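In 13 of 200 pairs of a named gene and a group, 1 of the 4 arrays lay far from the other arrays of its group, where chance gives about 1 in 20. The library labelled MK2-/- LPS replicate 3 stood apart for Xist (8.34), Eif2s3y (1.76), Ddx3y (1.83) and Uty (2.15). In MK2-/- LPS BMDM, single arrays also stood apart for Adgrg5 (replicate 1 at 1.88), AK019943 (replicate 1 at 6.50), Abhd14b (replicate 2 at 10.17), Ggct (replicate 4 at 8.0) and Il1rl2 (replicate 4 at 4.49). In MK2/3-/- LPS BMDM this held for Nlrc4 (replicate 1 at 5.97, the other arrays at 9.12 to 9.47), Atf3 (replicate 3 at 15.55), XM_003945321 (replicate 4 at 12.88) and Olfr1020 (replicate 4 at 2.62). In Abhd14b the outlying array lay towards the double knockout, and in Ggct away from it.

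Probes without a RefSeq or GenBank accession were left out of the comparison. Of these 22796 probes, 34 passed the adjustment (0.149%), 4 higher and 30 lower in MK2/3-/- LPS BMDM.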

How the results depend on the processing

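Of the 42 genes past the adjustment all kept their sign in every setting, and 15 remained past it without each of the 8 arrays in turn, among them Mapkapk3, Abhd14b, Plcxd1, Zfp932, Ddx28, Adgrg5, Ppp1r3d, Slc66a2 and Serpinb6d. The number of genes past the adjustment was 24 with scaling to the 75th percentile and 8 with the 8 arrays alone. It was 3 when the methods' t-test was run on the log2 scale and 2 when it was run on linear signals. Of the 42 genes, these settings held 23, 5, 2 and 2, respectively. With normexp background correction 43 genes passed, 26 of them among the 42. The number was 111 with the replicate block and 95 with a block by culture letter, and 69 without both arrays of number 4. The last 2 of these, and the signal before the gradient correction (46), were chosen after seeing the data. With one array left out, it ranged from 19 (without MK2-/- LPS replicate 3) to 113 (without MK2/3-/- LPS replicate 4), with 20 without MK2-/- LPS replicate 2, 23 without replicate 1, and 22 and 24 without MK2/3-/- LPS replicates 3 and 2. The number with an unadjusted p under 0.05 ranged from 1690 to 2594 when one array was left out, and was 1349 among the 13868 genes well above background. The interaction gave 0 or 1 gene past the adjustment when one array was left out, the 1 being Tlcd4 (-1.80, adjusted p = 0.0127) without MK2-/- LPS replicate 3, and 0 with the replicate block. Scaling to the 75th percentile moved the median difference of all genes to 0.127. It moved the split from 15 higher and 27 lower to 13 higher and 11 lower. At an unadjusted p under 0.05 the split moved from 973 higher and 1086 lower to 1221 higher and 602 lower. The causes were not tested. The slide as a block could not be fitted. Genes not well above background in both groups limit what the arrays can show.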

Other observations

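Some entries with very large differences did not pass the adjustment in limma. NM_133362 differed by -5.61 (adjusted p = 0.1), the largest absolute difference in the table. Without the library labelled MK2-/- LPS replicate 3, Tlcd4 (-1.82, adjusted p = 1.56e-05) and Zcchc12 (-2.05, adjusted p = 0.0089) passed the adjustment, which they did not with it.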
